A study of Mus musculus with 6 samples.

Results

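The genes described here encode the P2Y receptors, which are G protein-coupled receptors for extracellular nucleotides, and 3 ectonucleotidases, the cell-surface enzymes that break those nucleotides down. The members were the rows of the deposited count table with the symbols P2ry1, P2ry2, P2ry4, P2ry6, P2ry12, P2ry13, P2ry14, Entpd1, Entpd2 and Nt5e, which are 10 of its 45703 genes. They were read in 6 primary cell cultures of dorsal root ganglia, the clusters of sensory neurons and their glia beside the spinal cord. Adult C57BL/6 mice without a mutation, 4 to 6 weeks old, gave the ganglia. Their cells grew for 7 days on poly-L-lysine in medium that held 10% serum plus the growth factors EGF and FGF, each at 10 ng/ml. All cultures formed 1 untreated group, so the comparisons are between members and between the replicates, called cultures 1 to 6 after their replicate numbers. Each library came from 2 pooled dishes, and whether each culture came from different animals was not stated, so the spread between libraries is the spread between cultures.

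ATP and UTP released by cells act on P2Y receptors until membrane enzymes remove their phosphates. P2Y1, P2Y2, P2Y4 and P2Y6 signal through Gq and phospholipase C to raise cytosolic calcium, whereas P2Y12, P2Y13 and P2Y14 signal through Gi, which lowers cyclic AMP. Entpd1 (CD39) converts ATP to AMP, Entpd2 prefers ATP and leaves much of the product as ADP, and Nt5e (CD73) converts AMP to adenosine. In sensory ganglia this system is known to link neurons with satellite glia and Schwann cells and to take part in pain signalling.

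The libraries held 20070639 to 22968642 counts. Levels are given as CPM, the count of a gene scaled to a library of 1000000 counts, and for comparisons between genes as CPM per kb, that is, per 1000 bases of combined exon length. The check of the tissue against markers used lists of glial, neuronal and other genes. All 8 glial lineage genes and all 10 neuron genes reached 1 CPM in every culture, with summed levels of 4471 to 6383 CPM and 968 to 2051 CPM. The macrophage list, by contrast, summed to 19.2, 35.0, 134, 151, 179 and 47.2 CPM in cultures 1 to 6. Cultures 1 and 5 stood at opposite ends for the macrophage, fibroblast, mural and endothelial lists. The fibroblast list summed to 3344 CPM in culture 1 and 14112 CPM in culture 5.

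Of the 10 members, 6 reached 1 CPM in all 6 cultures, against 30.4% of all genes in the table and 55.8% of its protein-coding genes. These were Entpd2, Entpd1, P2ry2, P2ry12, P2ry1 and Nt5e. P2ry14 reached 1 CPM in 5 cultures, P2ry6 in 3 and P2ry13 in 0. P2ry4 had at most 2 counts in any library and was not detectable at this depth. For a count of 0, the limit set here for counting error alone was 3 counts. This corresponds to 0.137 to 0.149 CPM in the 4 libraries with 0, where two-sided exact Poisson 95% intervals reach 0.168 to 0.184 CPM.

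**Figure D1:**
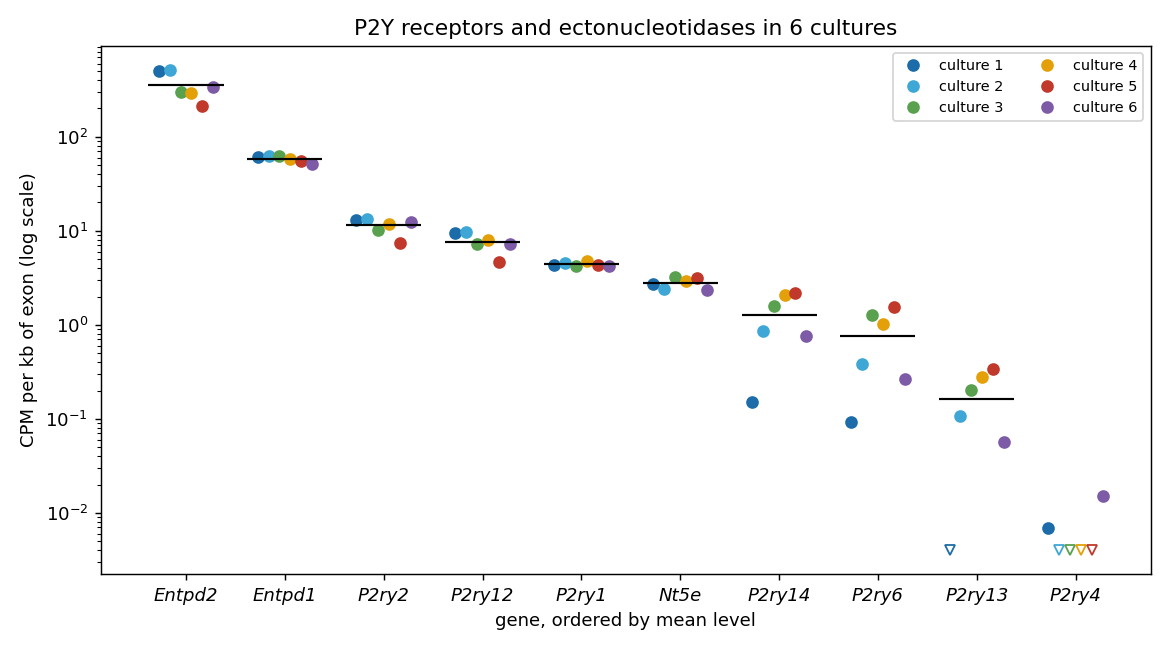
Level of each member in each culture in CPM per kb on a log axis; points are single cultures, horizontal lines are means over 6 cultures, and open triangles at the bottom mark cultures with 0 counts. Entpd2 has the highest points of all members in every culture, and P2ry14, P2ry6 and P2ry13 show the widest spread of the members with more than 3 counts.

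The ectonucleotidases were led by Entpd2 (Gene ID 12496; chromosome 2, 25395874 to 25401323, plus strand, GRCm38.p6). Entpd2 stood at 964, 996, 575, 562, 407 and 656 CPM in cultures 1 to 6, a mean of 693 ± 236 CPM (SD, n = 6). Cultures 1 and 2 were the highest and culture 5 the lowest, with a ratio of 2.44 between the extremes. At 358 ± 122 CPM per kb (SD, n = 6) it lay above 99.5% of the 14998 genes that passed the filter on low counts. Its counts were fractional in 3 libraries, and how such values arose was not given in the sources used here.

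Entpd1 (Gene ID 12495; chromosome 19, 40612366 to 40741602, plus strand) was steady. It was counted at 299, 312, 312, 288, 273 and 257 CPM in cultures 1 to 6, and its highest and lowest cultures differed by a ratio of 1.21. Its mean was 290 ± 22.1 CPM, or 58.5 ± 4.46 CPM per kb (SD, n = 6), above 93.0% of the tested genes. CD39 is widely used as a marker of vessel lining and immune cells. The macrophage list summed to 19.2 CPM in culture 1 and 179 CPM in culture 5, and the endothelial list to 10.8 and 142 CPM. Over the 6 cultures, Pearson's r of the Entpd1 level with the endothelial score, a mean log2 level of that list, was -0.51. It did not pass (exact permutation p = 0.314, adjusted p = 0.471). What part the cells of either list had in the Entpd1 level was not tested. A pseudogene, Gm8783, lies on the same strand within the span of Entpd1. It had 29.2 ± 1.13 CPM (SD, n = 6), and it shared 0 exonic bases with Entpd1 in GENCODE M21. Gm41846, also within that span, had 0 counts.

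Nt5e (Gene ID 23959; chromosome 9, 88327609 to 88372089, plus strand), the adenosine-forming enzyme, was the lowest of the 3. Its levels were 9.80, 8.65, 11.6, 10.6, 11.4 and 8.37 CPM in cultures 1 to 6, with a mean of 10.1 ± 1.36 CPM or 2.81 ± 0.379 CPM per kb (SD, n = 6). Cultures 3 and 5 were highest and cultures 2 and 6 lowest, a ratio of 1.38. Entpd2 made up 84.4% ± 4.20 of the summed CPM per kb of the 3 enzymes, Entpd1 14.9% ± 3.91 and Nt5e 0.736% ± 0.289 (SD, n = 6). The Entpd2 share was 88.8% in culture 1 and 78.3% in culture 5. Per kb, Entpd1 and Entpd2 together exceeded Nt5e by a ratio of 154 ± 59.9 (SD, n = 6), from 83.6 in culture 5 to 239 in culture 2. These are transcript levels, and enzyme activity was not measured.

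**Figure D2:**
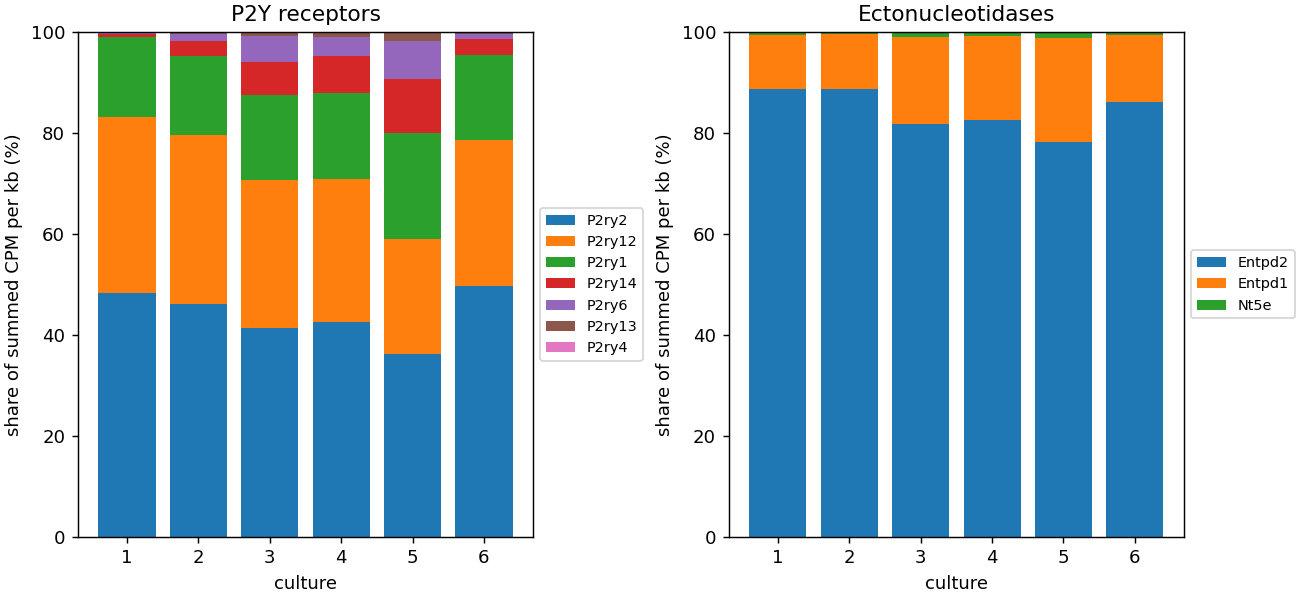
Share of each gene in the summed CPM per kb of the 7 P2Y receptors (left) and of the 3 ectonucleotidases (right), 1 bar per culture. P2ry2 takes 36.3% to 49.6% of the receptor sum, and Entpd2 takes 78.3% to 88.8% of the enzyme sum.

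Among the Gq-coupled receptors, P2ry2 (Gene ID 18442; chromosome 7, 100996568 to 101012053, minus strand), a receptor for ATP and UTP, had the highest level. It was counted at 40.1, 41.1, 31.3, 36.6, 22.8 and 37.6 CPM in cultures 1 to 6, with a mean of 34.9 ± 6.85 CPM or 11.4 ± 2.24 CPM per kb (SD, n = 6). Culture 5 was the lowest by a clear margin, and the ratio of the extremes was 1.80. P2ry2 took 44.1% ± 4.94 of the summed P2Y level per kb (SD, n = 6).

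P2ry1 (Gene ID 18441; chromosome 3, 61002785 to 61008982, plus strand), a receptor for ADP, was the most even of the members detected in all cultures. Its levels were 16.8, 17.9, 16.3, 18.7, 16.7 and 16.3 CPM in cultures 1 to 6, with a mean of 17.1 ± 0.958 CPM or 4.39 ± 0.246 CPM per kb (SD, n = 6). The coefficient of variation (SD divided by mean) was 0.0560, lower than that of 87.4% of the tested genes. The ratio of P2ry2 to P2ry1 per kb went from 1.73 in culture 5 to 3.03 in culture 1.

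P2ry6 (Gene ID 233571; chromosome 7, 100937630 to 100975498, minus strand) is a receptor for UDP known from macrophages and microglia, and it lies 21069 bases from P2ry2. It was counted at 0.218, 0.911, 3.00, 2.43, 3.68 and 0.622 CPM in cultures 1 to 6, on 5 counts in culture 1 and 77 in culture 5. Cultures 3, 4 and 5 lay above 2 CPM and the others below 1 CPM. The extremes differed by a ratio of 16.9, and the exact Poisson 95% intervals, which cover counting error only, were 0.0707 to 0.508 CPM in culture 1 and 2.90 to 4.597 CPM in culture 5. P2ry4 (Gene ID 57385; chromosome X, 100588358 to 100594927, minus strand), a receptor for UTP, had 1 count in culture 1, 2 counts in culture 6 and 0 in the other cultures.

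The Gi-coupled receptors P2ry12, P2ry13 and P2ry14 are neighbours on chromosome 3. All 3 lie on the minus strand within the span of Med12l, a gene of the plus strand (59005419 to 59318446). P2ry14 and P2ry13 are 54399 bases apart, and P2ry13 and P2ry12 are 5388 bases apart. In GENCODE M21, 9 exonic bases of P2ry12 were shared with Med12l, and P2ry13 and P2ry14 shared 0. The library kit marks strand, but the strand setting of the counting was not given in the sources used here. Med12l stood at 9.62, 5.19, 9.88, 5.98, 3.73 and 8.32 CPM in cultures 1 to 6, a different order from those of the 3 receptors. F630111L10Rik, a non-coding gene that overlaps P2ry14 on the same strand, had at most 1 count.

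The upstream sequences of these neighbours are shown because the 3 genes lie side by side and yet differed in opposite directions between cultures 1 and 5. Each is the 250 bases before the RefSeq transcription start (GRCm38.p6), 5′ to 3′ on the strand of the gene, and for P2ry14, which has several starts, the one farthest upstream was taken. Capitals mark matches on either strand to GAGGAA, the core bound by the myeloid factor PU.1 (TTCCTC on the other strand), or to ACAAAG or ACAATG, cores bound by SOX factors (CTTTGT and CATTGT on the other strand).
P2ry12 chr3:59262986-59263235, minus strand: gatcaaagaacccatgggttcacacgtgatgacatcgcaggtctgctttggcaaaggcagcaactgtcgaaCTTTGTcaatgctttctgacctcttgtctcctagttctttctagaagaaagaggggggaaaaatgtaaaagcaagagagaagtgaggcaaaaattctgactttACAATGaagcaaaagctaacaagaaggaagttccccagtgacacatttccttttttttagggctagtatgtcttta
P2ry13 chr3:59210883-59211132, minus strand: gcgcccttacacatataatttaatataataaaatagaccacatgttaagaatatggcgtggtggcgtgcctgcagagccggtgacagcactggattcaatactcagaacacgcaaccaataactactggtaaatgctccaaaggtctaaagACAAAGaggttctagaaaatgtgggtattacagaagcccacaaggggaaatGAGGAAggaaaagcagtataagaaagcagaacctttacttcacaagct
P2ry14 chr3:59153493-59153742, minus strand: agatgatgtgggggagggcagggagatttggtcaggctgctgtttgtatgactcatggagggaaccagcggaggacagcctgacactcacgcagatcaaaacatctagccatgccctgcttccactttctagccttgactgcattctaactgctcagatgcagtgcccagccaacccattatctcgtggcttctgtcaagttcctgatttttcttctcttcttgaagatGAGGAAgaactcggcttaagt
GAGGAA occurred 1 time upstream of P2ry13 and 1 time upstream of P2ry14, and 0 times upstream of P2ry12. The SOX cores occurred 2 times upstream of P2ry12, 1 time upstream of P2ry13 and 0 times upstream of P2ry14. Over all 32851 upstream windows of the same length in the RefSeq table, 23.3% held GAGGAA or its complement and 25.2% held a SOX core, and no match overlapped another in these 3 sequences. Such a match describes the letters and shows no binding. The 3 sequences and the cores were chosen after the levels had been seen. Of the 10 members, 9 matched the table and P2ry6 did not. At the first listed starts of Entpd2, Entpd1, P2ry1, P2ry2 and Nt5e, GAGGAA and the SOX cores occurred 0 times. That of P2ry4, which was not detectable, held GAGGAA 1 time, and a second start of Entpd1 held it 2 times. The windows of P2ry12 and P2ry13 held 41.6% G and C and that of P2ry14 50.0%, while the first listed start of P2ry4 held 50.0%, that of Entpd2 59.2% and those of Entpd1, P2ry2, P2ry1 and Nt5e 62.4% to 72.0%. The median of all windows was 52.4%.

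P2ry12 (Gene ID 70839; chromosome 3, 59216271 to 59262985, minus strand) is an ADP receptor known from platelets and microglia. Its levels were 24.2, 24.9, 18.4, 20.2, 11.9 and 18.4 CPM in cultures 1 to 6, with a mean of 19.7 ± 4.71 CPM or 7.69 ± 1.84 CPM per kb (SD, n = 6). Cultures 1 and 2 were the highest and culture 5 the lowest, with a ratio of 2.09 between the extremes. P2ry12 took 29.6% ± 4.29 of the summed P2Y level per kb (SD, n = 6).

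P2ry14 (Gene ID 140795; chromosome 3, 59114623 to 59153492, minus strand), the receptor for UDP-glucose and other UDP sugars, ran the other way. It was counted at 0.392, 2.19, 4.11, 5.33, 5.64 and 1.96 CPM in cultures 1 to 6, a mean of 3.27 ± 2.08 CPM (SD, n = 6). Culture 1 rested on 9 counts and culture 5 on 118, and the extremes differed by a ratio of 14.4. P2ry13 (Gene ID 74191; chromosome 3, 59207892 to 59210882, minus strand), an ADP receptor of myeloid cells, had 0, 6, 11, 14, 18 and 3 counts in cultures 1 to 6. Its level was 0.860 CPM in culture 5, and the 0 in culture 1 allows up to 0.131 CPM by the same limit of 3 counts. The two-sided exact Poisson 95% interval, the kind given for P2ry6, reaches 0.161 CPM there. The ratio of P2ry12 to P2ry14 per kb was 62.0 in culture 1 and 2.13 in culture 5.

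**Figure D3:**
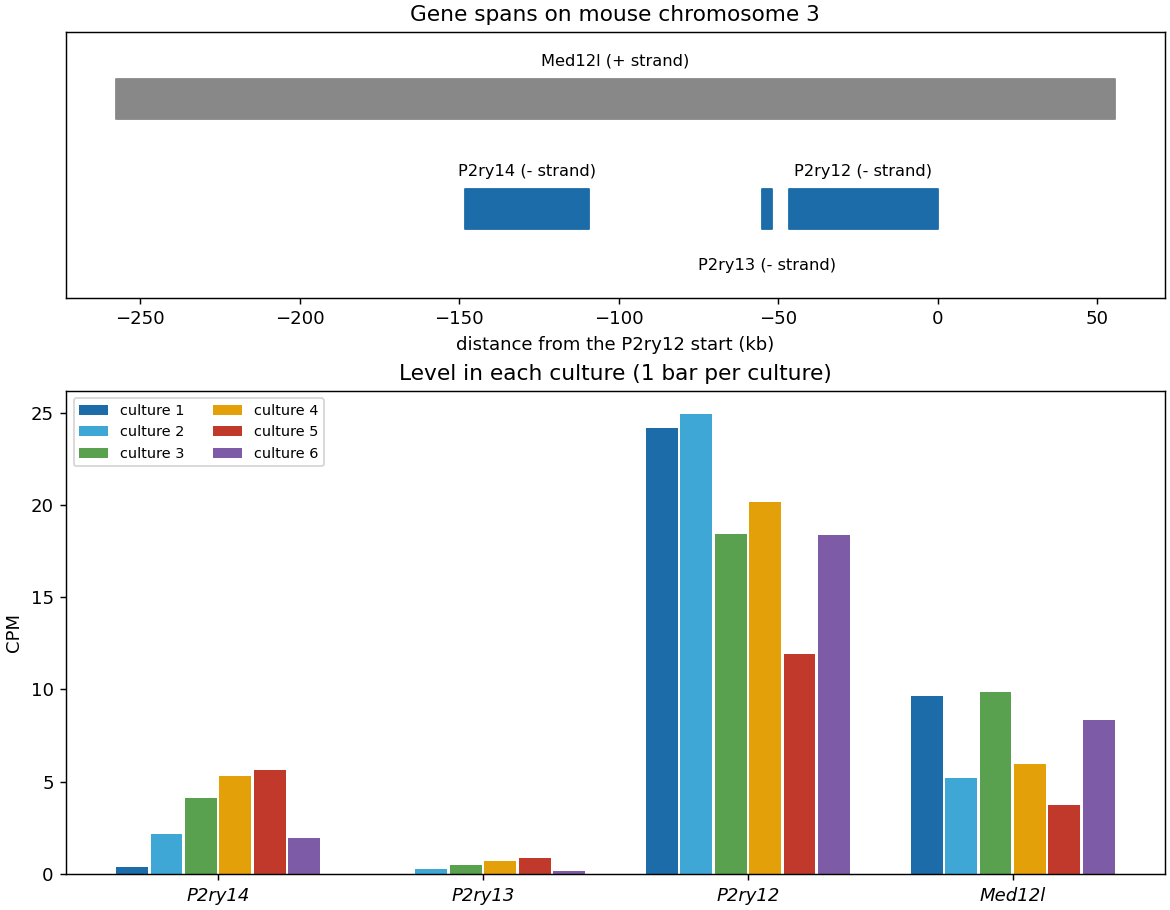
Spans of Med12l, P2ry14, P2ry13 and P2ry12 drawn to scale by distance in kb from the start of P2ry12 (top), and the level of each gene in CPM with 1 bar per culture (bottom). Culture 5 has the highest bar for P2ry14 and P2ry13 and the lowest for P2ry12.

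The Gq-coupled receptors together held 64.5% ± 1.67 of the summed P2Y level per kb (SD, n = 6). This share varied little, from 63.2% in culture 2 to 67.7% in culture 6, although the shares of single receptors of both classes changed. P2ry6 made up 0.340% of the P2Y sum in culture 1 and 7.59% in culture 5, and P2ry14 made up 0.563% and 10.7%. P2ry2 and P2ry12 made up 83.2% of the sum in culture 1 and 59.1% in culture 5. The P2Y sum itself was 25.7 ± 3.09 CPM per kb, and the sum of the 3 ectonucleotidases was 419 ± 124 CPM per kb (SD, n = 6 for each).

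By mean CPM per kb the order was Entpd2, Entpd1, P2ry2, P2ry12, P2ry1, Nt5e, P2ry14, P2ry6 and P2ry13. All 8 pairs of neighbours in this order kept their order in every culture. The within-library differences of log2(CPM per kb + 0.1) ranged from 0.57 ± 0.123 for P2ry2 over P2ry12 to 2.54 ± 0.454 for Entpd2 over Entpd1 (SD, n = 6). P2ry12 exceeded P2ry1 by 0.76 ± 0.356, but by only 0.12 in culture 5, the closest approach of any pair. Each pair had an exact two-sided sign-flip permutation p = 0.0312, the smallest that 6 libraries allow, also after Benjamini-Hochberg adjustment over the 8 pairs. Since the pairs were taken from the observed order, this p says only that the libraries do not disagree. Levels of genes depend on the exon length used: without division by length, P2ry12 and P2ry1 differed by 0.16 ± 0.360 on the log2 scale and did not pass (exact permutation, adjusted p = 0.3125). For P2ry14 the length used was 2571 bases, whereas GENCODE M21 holds 11059 exonic bases for it. Its place in the order, its share of the P2Y sum and its ratio to P2ry12 per kb depend on that choice.

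Variation between cultures was tested against the noise of counting, with a chi-square test per gene over all genes kept by edgeR's filter. Of the 6 members that passed the filter, 5 varied beyond counting noise, against 76.3% of all tested genes, so this count is close to the background. Benjamini-Hochberg adjusted p-values over all tested genes were 7.66e-39 for Entpd1, 3.53e-32 for P2ry2, 2.97e-26 for P2ry12 and 0.0115 for Nt5e, and that of Entpd2 was too small to be represented. P2ry1 did not pass (chi-square test, adjusted p = 0.263). Without culture 6 the adjusted p of Nt5e was 0.0835 and its call was lost; under the other alternatives it lay between 0.00241 and 0.0272. P2ry6, P2ry13 and P2ry14 did not pass the filter, because of their low counts in some cultures. With no filter, where 50.2% of 26854 genes were called, the adjusted p was 7.63e-23 for P2ry6, 9.09e-05 for P2ry13 and 8.27e-28 for P2ry14. P2ry4 was not called there (adjusted p = 0.308), on 3 counts in all.

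The size of the variation separated the members more than the test did. The coefficient of variation of CPM was 0.0560 for P2ry1, 0.0763 for Entpd1, 0.135 for Nt5e, 0.196 for P2ry2, 0.240 for P2ry12, 0.341 for Entpd2, 0.638 for P2ry14, 0.783 for P2ry6 and 0.804 for P2ry13. The median over all tested genes was 0.121. Without culture 5 the value fell to 0.102 for P2ry2 and 0.148 for P2ry12, so much of their spread rested on that library. edgeR's tagwise biological coefficient of variation, which models counting noise apart, is drawn toward the trend over genes of like abundance. It was 0.305 for Entpd2 against a trend of 0.176. For P2ry1 it was 0.126 against 0.218, and for Entpd1 0.114 against 0.164. For P2ry1 and Entpd1 it lay above their plain coefficient of variation, so it is not read as their own spread.

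The members were grouped by their order across cultures, a grouping made after their values were seen. P2ry6, P2ry13 and P2ry14 had their lowest level in culture 1 and their highest in culture 5, as had 12.9% of tested genes, although these 3 were not among them. P2ry2, P2ry12 and Entpd2 had their lowest level in culture 5, as had 26.2% of tested genes, and their highest in culture 2. P2ry1, Entpd1 and Nt5e had neither pattern and ratios of 1.15, 1.21 and 1.38 between their extremes, although Entpd1 and Nt5e varied beyond counting noise. Over the 6 cultures, log2 levels of P2ry2 and P2ry12 had a Pearson's r of 0.96, those of P2ry12 and Entpd2 0.93 and those of P2ry2 and Entpd2 0.89, given as a description.

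**Figure D4:**
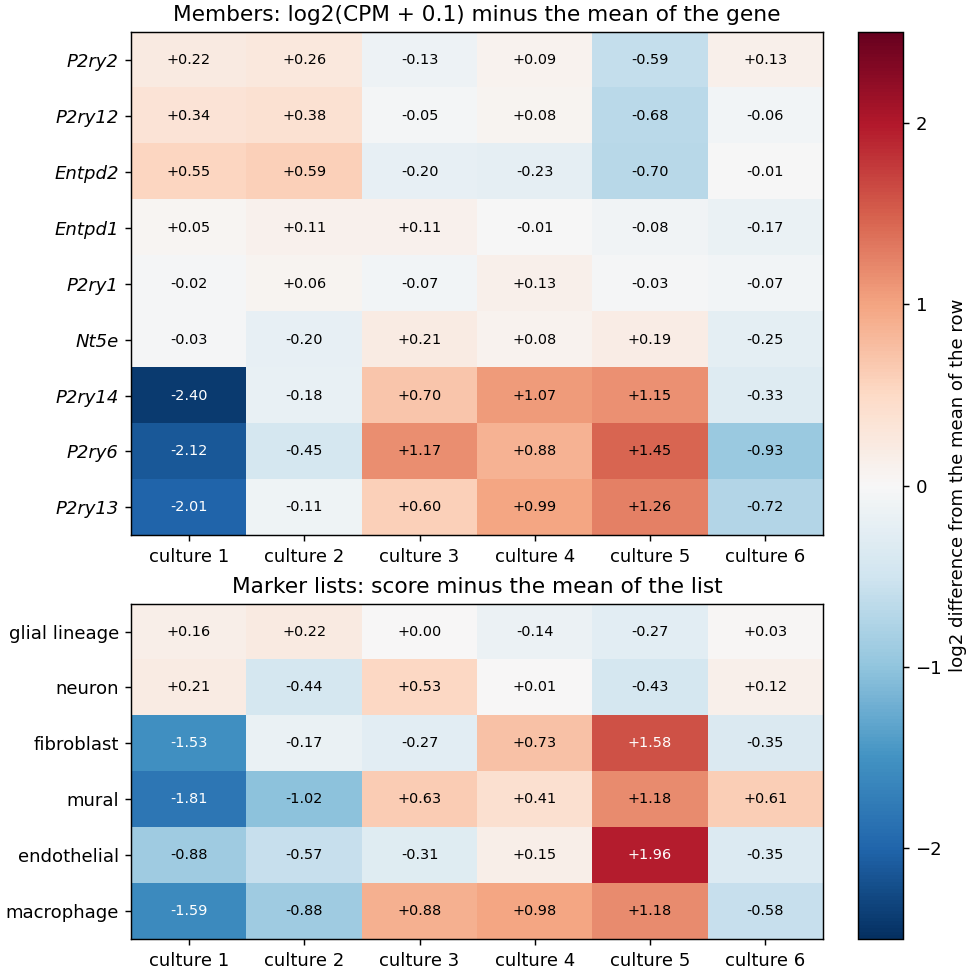
Difference of each culture from the mean of the row on the log2 scale, for 9 members (top, log2(CPM + 0.1)) and for 6 marker lists (bottom, list score with TMM scaling). P2ry14, P2ry6 and P2ry13 are lowest in culture 1 and highest in culture 5, as the macrophage, fibroblast, mural and endothelial scores are. P2ry2, P2ry12 and Entpd2 are lowest in culture 5, as the glial lineage score is.

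The cultures are mixtures, in which fewer cells of a type and less RNA per cell cannot be told apart. The macrophage list, which includes Csf1r, the receptor for macrophage growth factor, was lowest in culture 1 for 9 of its 10 genes and highest in culture 5 for 7 of 10. No gene of the list was at 0 in any culture, and 8 of 10 reached 1 CPM in all. Its score fell into separate sets, with cultures 3, 4 and 5 at 2.17 to 2.47 and cultures 1, 2 and 6 at -0.29 to 0.71, so no pooled correlation with it is given. P2ry6, P2ry14, P2ry13 and Nt5e showed the same division: all of cultures 3, 4 and 5 lay above all of cultures 1, 2 and 6. For Nt5e the levels were 10.6 to 11.6 CPM against 8.37 to 9.80 CPM. Entpd2 and P2ry2 showed the reverse, with all of cultures 3, 4 and 5 below all of cultures 1, 2 and 6. The share of all tested genes with either division was not counted, so neither is read as particular to these members. Relative to Csf1r, which stood at 3.35 CPM in culture 1 and 39.6 CPM in culture 5, P2ry6 varied by a ratio of 2.28 between cultures and P2ry14 by 3.04. P2ry12, lowest in culture 5 where Csf1r was highest, varied by 23.9 relative to Csf1r, more than its own ratio of 2.09. Division by Csf1r tends to narrow genes with its order across cultures and to widen those with the opposite order. These ratios therefore cannot tell which cells hold the transcripts. P2ry13 had 0 counts in culture 1, so no such ratio is given for it. No ratio to a fibroblast, mural or endothelial gene was taken. The fibroblast list was also lowest in culture 1, for 8 of 8 genes, and highest in culture 5 for 6 of 8. So were the mural list, for 5 of 6 and 4 of 6 genes, and the endothelial list, for 4 of 8 and 8 of 8. Over the 6 cultures, Pearson's r with the fibroblast score was 0.85 for P2ry6 and 0.89 for P2ry14. With the mural score it was 0.81 and 0.85, and with the endothelial score 0.71 and 0.67. None of these relations passed (exact permutation, adjusted p between 0.0952 and 0.306). P2ry13, with a mean below 1 CPM, was left out of such relations. What part the cells of any list had in the levels of P2ry6, P2ry13 and P2ry14 was not tested.

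The glial lineage list, with Sox10 and Erbb3 among its genes, had its lowest level in culture 5 for 5 of 8 genes, and all 8 were above 1 CPM in all cultures. A lowest level in culture 5 was also seen for 6 of 10 neuron genes, 5 of 6 myelin genes and 4 of 6 satellite glia genes. The glial lineage score was higher in cultures 1, 2 and 6 than in cultures 3, 4 and 5. The gap was narrow, from 6.92 in culture 6 to 6.89 in culture 3. The Entpd2 level followed the glial lineage score in rank in all 6 cultures (Spearman's rho = 1.00, exact permutation p = 0.00278, adjusted p = 0.10), with Pearson's r = 0.96 (exact permutation p = 0.00139, adjusted p = 0.0667). Without cultures 2 and 5, the farthest from the median score, r was 0.87. For P2ry12 r was 0.89 and rho 0.83 (exact permutation p = 0.0167 and 0.0583, adjusted p = 0.10 and 0.165), and r was 0.55 without those cultures. For P2ry2 r was 0.84 and rho 0.94 (exact permutation p = 0.0292 and 0.0167, adjusted p = 0.129 and 0.10), and r was 0.41 without them, so the relations of P2ry2 and P2ry12 rested in part on cultures 2 and 5. The adjustment covered the 48 relations of 8 members with 6 lists, including those with the macrophage list that are not given. Of the 48, 0 passed for r or rho, and 17 had an unadjusted exact permutation p under 0.05 for r and 13 for rho. For P2ry1, Entpd1 and Nt5e, r with the glial lineage score was 0.16, 0.62 and -0.63 (exact permutation p = 0.751, 0.189 and 0.181, adjusted p = 0.820, 0.313 and 0.310). Relations of similar size and opposite sign stood with the endothelial and mural lists. With the endothelial score r was -0.91 for P2ry12 and for P2ry2 and -0.84 for Entpd2, and with the mural score -0.84, -0.74 and -0.92. Without the farthest cultures, 1 and 5, r with the endothelial score was -0.44 for P2ry12, -0.35 for P2ry2 and -0.76 for Entpd2. Without cultures 1 and 2, r with the mural score was -0.99, -0.92 and -0.82. With the fibroblast score r was also negative, at -0.77 for P2ry12, -0.74 for P2ry2 and -0.81 for Entpd2. Without cultures 1 and 5 it was 0.07, 0.02 and -0.36. The adjusted exact permutation p-values for r with the endothelial, mural and fibroblast scores lay between 0.0952 and 0.2. The satellite glia and myelin scores had other orders than Entpd2. In culture 1, where Entpd2 stood at 964 CPM, they were 5.72 and 5.92. Both were highest in culture 6, at 6.15 and 6.44, where Entpd2 stood at 656 CPM. Relations with the satellite glia and myelin lists were not tested. Relative to Sox10, Entpd2 still varied by a ratio of 1.99, P2ry12 by 1.70 and P2ry2 by 1.48. The labels name no batch of culture or sequencing, and within-batch values could therefore not be given. The part of cell mixture in these levels was not tested.

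**Figure D5:**
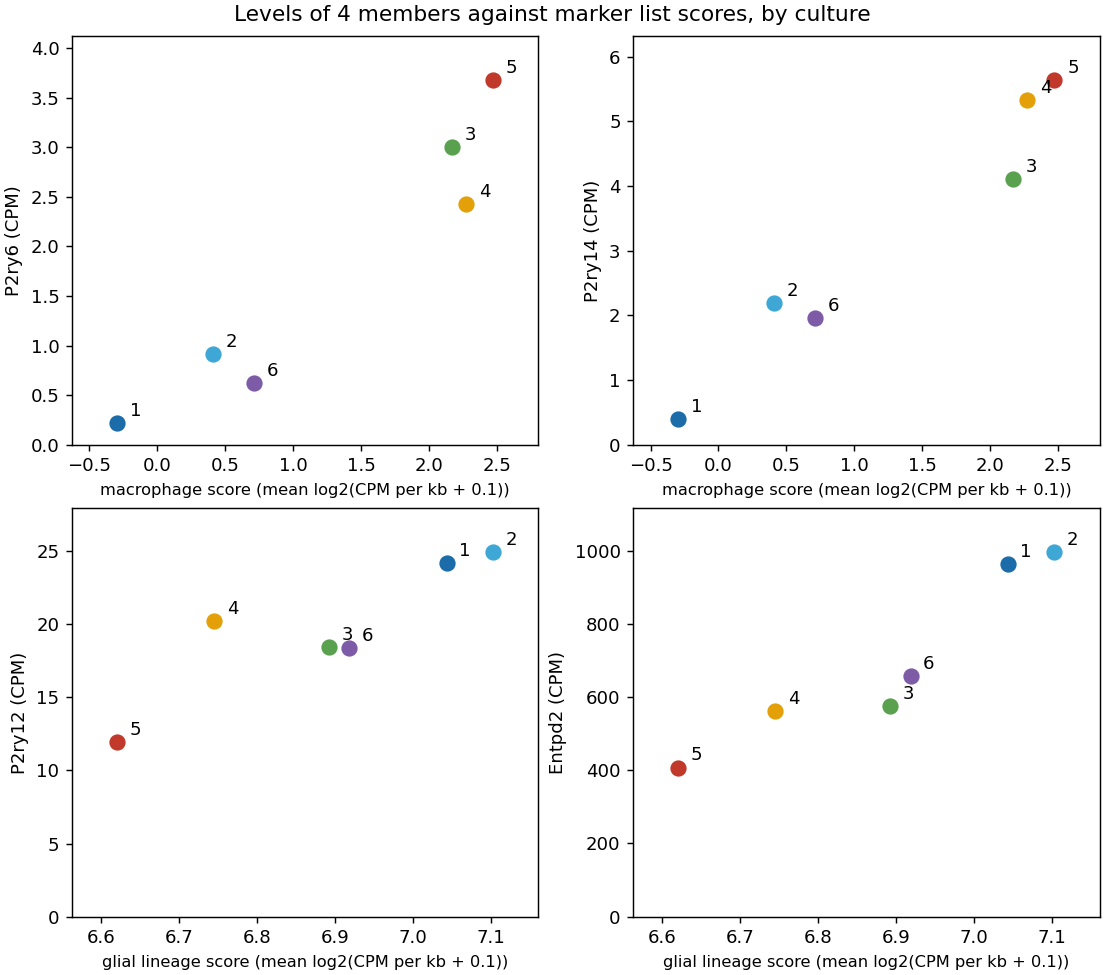
Level of P2ry6 and P2ry14 in CPM against the macrophage score (top) and of P2ry12 and Entpd2 against the glial lineage score (bottom); each point is 1 culture with its number. Cultures 3, 4 and 5 stand apart from 1, 2 and 6 in the upper panels, and Entpd2 has the same order as the score in all 6 cultures.

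The genes around the receptors and enzymes were read from lists, and calls are again of variation beyond counting noise. The background is the same for each list: 76.3% of all tested genes were called, and 55.8% of protein-coding genes reached 1 CPM in all cultures. The lists were short, and no count below is read as particular to its list. Of the 4 adenosine receptors, which bind the product of Nt5e, 1 reached 1 CPM in all cultures. This was Adora1, the Gi-coupled receptor known for pain relief in sensory neurons, which had the highest mean at 1.16 ± 0.410 CPM per kb (SD, n = 6), and Adora3 had at most 1 count. Both adenosine receptors that passed the filter were called. Of 13 further nucleotide and adenosine enzymes, 9 reached 1 CPM in all cultures and 9 of 11 tested were called. Adk, the kinase that turns adenosine back into AMP, was the highest at 24.8 ± 2.91 CPM per kb (SD, n = 6), and Entpd8 had 0 counts in all libraries. Acpp, prostatic acid phosphatase, which like Nt5e makes adenosine from AMP in pain-sensing neurons, stood at 1.54 ± 0.478 CPM per kb against 2.81 ± 0.379 for Nt5e (SD, n = 6 for each). It is named for that shared reaction.

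Of 4 genes for nucleoside transport and ATP release, 3 reached 1 CPM in all cultures and 2 of 3 tested were called. Panx1, a channel through which ATP leaves cells, was the highest at 24.4 ± 1.196 CPM per kb, and Slc17a9, the vesicular nucleotide transporter, the lowest at 0.137 ± 0.0617 CPM per kb (SD, n = 6). Of the 7 P2X receptor subunits, the ATP-gated channels, 4 reached 1 CPM in all cultures and 4 of 5 tested were called. P2rx7 had the highest mean at 20.1 ± 3.96 CPM per kb (SD, n = 6), with fractional counts in 3 libraries. It was not first in every culture: P2rx3 was higher in culture 1, at 29.3 against 15.7 CPM per kb, and in culture 3, at 25.8 against 23.2. P2rx4 was also higher in culture 1, at 18.9 CPM per kb, and in culture 5, at 16.0 against 15.0. P2rx2 had at most 1 count. Downstream of the Gq-coupled receptors, 8 of 9 genes reached 1 CPM in all cultures and 8 of 8 tested were called. Itpr3, a calcium release channel of the endoplasmic reticulum, led them at 43.2 ± 7.82 CPM per kb, and Plcb2, a phospholipase C of blood cells, was lowest at 0.0427 ± 0.0243 CPM per kb (SD, n = 6). All 5 alpha subunits of the Gi class reached 1 CPM and were called, from Gnaz at 1.81 ± 0.57 to Gnai2 at 263 ± 14.3 CPM per kb (SD, n = 6).

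Genes with the pattern most like that of a member were sought among the tested genes by Pearson's r of log2 levels over the 6 cultures. For Entpd2 they were Hspa2 (0.9972), H3f3a (0.9959) and Adipor1 (0.9954), for P2ry2 Cox4i1 (0.9947), Rab7 (0.9946) and Cuedc2 (0.9919), and for P2ry12 LOC115488490 (0.9971), Acot2 (0.9933) and Pomt2 (0.9926). For P2ry1 they were Gm29696 (0.9811) and Exosc4 (0.9705), for Entpd1 Bag4 (0.9857), Gm9079 (0.9788) and 2610001J05Rik (0.9727), and for Nt5e Hnrnpa3 (0.9898), Gcnt1 (0.9866) and Gm9027 (0.9837). For P2ry6 they were Ptprc (0.9934), which encodes CD45 and belongs to the macrophage list, Gm19705 (0.9931) and Pwwp3a (0.9861), and for P2ry14 Hnrnph1 (0.9956), Srgn (0.9937) and Rfc2 (0.9929). Such values are common, since with 6 libraries the best match of a tested gene had a median r of 0.9942. P2ry1, P2ry6, Entpd1 and Nt5e had best matches below that median.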

How the data were processed

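The deposited table gave estimated counts per gene, unscaled, one column per culture; per the submitters' processing notes, bcl2fastq 2.20.0.422, cutadapt 2.5, STAR 2.7.2b, featureCounts 1.6.4 (Subread) and GRCm38.p6 were used. Settings for strand and for reads matching several places were not given in the sources used here. Of the values in each library, 13.4% to 14.7% were not whole. Combined exon length, in bases, was another deposited column, given per the file headers. The table held 0 further columns of per-sample values.

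After rounding of the counts, edgeR 4.0.16 under R 4.3.3 was run, with DESeq2 1.42.0 for one alternative. The function filterByExpr in edgeR kept 14998 genes, and TMM factors lay between 0.976 and 1.02. CPM used library totals of 20070639 to 22968642 counts and the unrounded values. Each gene was tested by a chi-square test of its 6 counts against scaled library sizes, with Benjamini-Hochberg adjustment over all genes tested and a threshold of 0.05; the test was checked on simulated data. List scores were means of log2(CPM per kb + 0.1) with TMM scaling; correlations used all 720 pairings, and sign-flip tests all 64 sign patterns. Alternatives were TMM or DESeq2 scaling, other thresholds and pseudocounts, no filter, no length scaling and each library left out. Named were all members, the genes with the highest and lowest mean of each pathway list, genes overlapping a member and the 3 genes most like each member with a mean of at least 1 CPM, of which 1 is not reported here. Acpp, P2rx3 and P2rx4 were named after their values were seen. The members and lists were chosen with earlier results of these data known.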

Additional observations from a re-analysis of the deposited data

Results flagged for a closer look

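Across 38 measures (the levels of 9 members and 29 sums, shares and ratios), the distance from the most extreme culture to the next one was taken as a share of the whole range of 6 cultures. This gap over range passed Dixon's 95% critical value for 3 measures, and chance flags about 5% of such groups. The measures share genes, so these flags are not independent.

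The ratio of P2ry12 to P2ry14 per kb was 62.0 in culture 1 and 2.13 to 11.5 in the other cultures, a gap over range of 0.844; P2ry14 had 9 counts in culture 1. The P2ry1 share of the summed P2Y level was 20.9% in culture 5 and 15.7% to 17.1% elsewhere, with a gap over range of 0.735. In that culture P2ry1 itself stood at 16.7 CPM, near its mean of 17.1 CPM, while P2ry2 and P2ry12 were at their lowest. The share of the Gq-coupled receptors was 67.7% in culture 6 and 63.2% to 64.8% elsewhere, with a gap over range of 0.635, just past the critical value.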

How the results depend on the processing

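Of the alternative values for results that answer a comparison, 182 stayed within the spread of the replicates or within 1.5 times the main number, and 3 moved. The number of members varying beyond counting noise was 5 in the main analysis and 8 with no filter on low counts, where all 10 members were tested in place of 6; it lay between 4 and 7 across the fits without 1 replicate. The coefficient of variation of P2ry2 was 0.102 to 0.220 and that of P2ry12 0.148 to 0.269 when single replicates were left out, lowest without culture 5 for both. Of the values for single genes and pairs, 148 kept their direction and their side of the threshold and 50 kept their direction but no longer passed. Of these, 48 were order differences with 1 library left out, where 5 libraries cannot give an exact sign-flip p below 0.0625. The others were Nt5e without culture 6 and P2ry12 over P2ry1 without length scaling. No relation to a cell type list passed under any alternative run. No paired analysis was possible because all samples belong to a single group. Depth limits P2ry4, P2ry13 and, in culture 1, P2ry6 and P2ry14, where a few counts carry each value.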
